A study of Mus musculus with 4 samples.

Results

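This account describes the stretches of the mouse genome that were accessible in embryonic stem cells (ESC) and in mouse embryonic fibroblasts (MEF) but had no listed peak in a sorted intermediate of fibroblast conversion to neural stem cells or in induced pluripotent stem cells (iPSC). They were selected on the deposited peak lists: peaks of all 4 libraries on chromosomes 1 to 19 were pooled, peaks at most 10 bp apart were joined into regions, and each region counted as open in the libraries with a listed peak in it and as closed in the others. Of 168348 regions, 2186 (1.30%) were open in ESC and MEF and closed in the other two libraries. They are called ESC-MEF regions here. Because presence and absence of peaks chose them, the pattern itself is no finding, and closed means only that no peak was listed.

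The assay was ATAC-seq, in which a transposase cuts and tags DNA where nucleosomes leave it exposed. Per the labels, each library came from 50000 cells treated for 30 min at 37 °C and amplified with 12 cycles of PCR, and each cell population had 1 library. The ESC were of the v6.5 line. The MEF and the iPSC carried the strain label A12 (Mbd3 flox/-), that is, a conditional and a deleted allele of Mbd3, a subunit of the NuRD repressor complex. The intermediate was derived from B6/129 fibroblasts with an inducible Col1a-OSKM cassette (Oct4, Sox2, Klf4 and Myc), a Nanog-CreER allele and a Rosa26 TdTomato reporter. Those cells received doxycycline and 4-hydroxytamoxifen, with a JAK1 inhibitor at 0.5 µM, and were sorted for TdTomato, so only cells with past Nanog-driven Cre activity were profiled; their title gives day 9 and their source field day 6. The label of the intermediate says that no feeder cells were used, and those of the ESC and iPSC libraries do not mention feeders. Strain labels differ between ESC, the intermediate and the A12 pair, so strain, batch and cell type cannot be told apart, and with 1 library per group no test was run.

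Accessible regions fall broadly into promoters, where the transcription machinery assembles, and distal elements such as enhancers, most of which are specific to a cell type. Promoters rich in CpG dinucleotides are accessible in most cell types, and those of developmental regulators such as the Hox genes are typically held by Polycomb repressors in pluripotent cells. Hox genes encode homeodomain factors that set position along the body axis, and cultured fibroblasts keep a record of their position in Hox activity.

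Promoter sequences of 5 genes that ESC-MEF regions covered are shown to let the letters be read beside the values below. They are RefSeq windows of GRCm38.p6 (mm10), from 250 bases before to 50 bases after a transcription start, on the strand of the gene. The first 4 are given because they differ in CpG content, and capitals mark each CpG. They are Hoxa10 at chr6:52240805-52241104 (minus strand), Hoxa11 at chr6:52245761-52246060 (minus strand), Ihh at chr1:74951623-74951922 (minus strand) and Dnmt3l at chr10:78049592-78049891 (plus strand). The last, Lhx6 at chr2:36105359-36105658 (minus strand), holds a match to the AP-1 motif TGANTCA, which its capitals mark.
Hoxa10: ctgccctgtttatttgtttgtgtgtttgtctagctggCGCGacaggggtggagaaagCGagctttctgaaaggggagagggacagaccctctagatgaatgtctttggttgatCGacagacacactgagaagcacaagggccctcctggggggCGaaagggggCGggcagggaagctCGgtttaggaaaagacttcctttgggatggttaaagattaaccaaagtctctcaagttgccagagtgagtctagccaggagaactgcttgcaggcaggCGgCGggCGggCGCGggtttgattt
Hoxa11: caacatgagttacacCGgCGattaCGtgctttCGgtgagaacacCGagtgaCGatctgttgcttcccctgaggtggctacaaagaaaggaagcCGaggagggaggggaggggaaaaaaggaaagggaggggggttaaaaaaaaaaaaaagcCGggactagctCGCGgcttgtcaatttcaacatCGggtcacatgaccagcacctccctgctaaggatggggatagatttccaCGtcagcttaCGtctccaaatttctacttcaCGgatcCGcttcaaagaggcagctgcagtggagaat
Ihh: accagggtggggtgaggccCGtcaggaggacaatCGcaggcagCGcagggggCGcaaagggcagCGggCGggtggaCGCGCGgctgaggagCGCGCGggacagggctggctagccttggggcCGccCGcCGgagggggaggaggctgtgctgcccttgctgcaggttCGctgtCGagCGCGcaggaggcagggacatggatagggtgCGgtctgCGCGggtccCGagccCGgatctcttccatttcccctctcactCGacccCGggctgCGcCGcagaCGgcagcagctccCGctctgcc
Dnmt3l: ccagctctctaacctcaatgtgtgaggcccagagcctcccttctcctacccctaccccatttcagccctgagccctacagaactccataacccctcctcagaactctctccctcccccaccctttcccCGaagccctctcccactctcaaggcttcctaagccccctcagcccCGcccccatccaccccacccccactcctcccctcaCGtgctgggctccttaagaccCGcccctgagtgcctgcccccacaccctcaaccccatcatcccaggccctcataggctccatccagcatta
Lhx6: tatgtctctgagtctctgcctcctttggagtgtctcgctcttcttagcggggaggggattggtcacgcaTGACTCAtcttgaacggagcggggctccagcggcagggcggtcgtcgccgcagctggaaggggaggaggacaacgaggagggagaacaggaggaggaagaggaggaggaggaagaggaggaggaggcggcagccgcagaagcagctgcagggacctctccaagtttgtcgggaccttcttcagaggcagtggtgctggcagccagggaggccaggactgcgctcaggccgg

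The Ihh window held 30 CpG, those of Hoxa11 and Hoxa10 held 15 and 12, and that of Dnmt3l held 4. The Hoxb4 window, not printed, held 14 CpG and the Zeb2 window 8. GC content was 72.7% at Ihh and 62.7% at Dnmt3l, so the Dnmt3l window was GC-rich but poor in CpG.

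ESC-MEF regions made up 8.62% (95% Wilson interval 8.28 to 8.97) of the 25367 regions open in both ESC and MEF. They were 3.23% of the 67617 regions open in ESC and 2.89% of the 75655 open in MEF. All intervals here count regions and cover counting error only. The other regions open in ESC and MEF were 17618 open in all 4 libraries, 3700 closed only in the intermediate and 1863 closed only in iPSC. The mirror pattern with iPSC in place of ESC, open in MEF and iPSC only, had 2264 regions, and 3707 regions were open in the intermediate and ESC only. The ESC list held 125858 peaks over 66.0 Mb, the MEF list 155064 over 73.1 Mb, the intermediate's 130631 over 64.0 Mb and the iPSC list 128931 over 69.9 Mb. Read depth is unknown.

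Peak height, a whole-number signal of the authors' own making that no header scales to depth, was low to moderate in most ESC-MEF regions. The tallest ESC peak of a region had a height between 6 and 758, with a median of 33 and quartiles of 27 and 40. The tallest MEF peak had a height between 5 and 754, with a median of 41 and quartiles of 33 and 57. Within their own lists these medians stood at the percentiles 53.3 in ESC and 67.7 in MEF, and since each is the tallest of its region while the lists count every peak, such percentiles run high: regions open in MEF alone had a median of 65.4. The unscaled ESC height exceeded the MEF height in 618 regions (28.3%). Regions were 211 to 4460 bp wide with a median of 960 bp. ESC had 1 peak in 56.2% of them and MEF in 38.5%.

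The lower a shared region, the more often it lacked an intermediate and an iPSC peak. Regions open in ESC and MEF were ranked by ESC height into 4 equal groups, and ESC-MEF regions were 26.8% of the lowest group, 6.61% of the second, 0.694% of the third and 0.378% of the highest. Ranked by MEF height the shares were 17.9%, 10.5%, 4.29% and 1.78%. The 23181 regions open in ESC and MEF that did not qualify had median heights of 74 in ESC and 72 in MEF. When ESC and MEF peaks were taken only from above the median height of their lists, 1013 regions and a share of 4.81% remained. Just outside the rule, 1 region had intermediate or iPSC peaks that were all under a height of 10, with 48 in ESC and 43 in MEF. Just inside, 49 members had an intermediate or iPSC peak 11 to 100 bp away, with median heights of 29 in ESC and 44 in MEF.

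**Figure D1:**
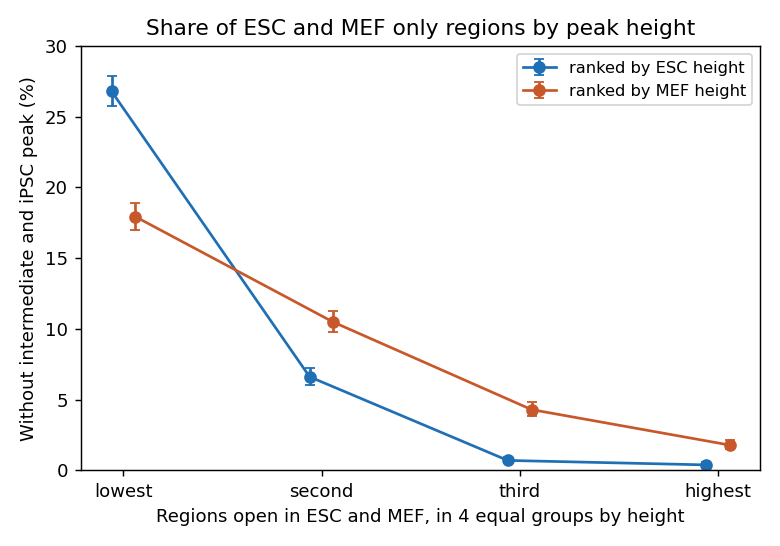
Share (%) of regions open in ESC and MEF that lacked an intermediate and an iPSC peak, in 4 equal groups from lowest to highest peak height, ranked by ESC (blue) or MEF (orange) height; bars are 95% Wilson intervals. The share drops to 0.378% in the highest ESC group, against 26.8% in the lowest.

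The ESC and MEF peaks of a member lay on the same stretch of DNA, largely because of how regions were built. Joining peaks at most 10 bp apart places some ESC peak of each member within 10 bp of a MEF peak. They shared at least 1 bp in 2184 of 2186 regions (99.9%) and at least 50% of the shorter peak in 2114 (96.7%). The summits of the tallest ESC and MEF peaks were a median of 70 bp apart. They lay within 100 bp of each other in 60.2% (58.2 to 62.3) of ESC-MEF regions, against 60.4% of those closed only in the intermediate, 60.0% of those closed only in iPSC and 71.9% (71.2 to 72.5) of those open in all 4. The nearest intermediate peak was a median of 6.82 kb away and the nearest iPSC peak 6.76 kb. An intermediate peak lay within 5 kb of 41.4% (39.3 to 43.4) of ESC-MEF regions, against 36.0% (34.0 to 38.0) of regions open in MEF and iPSC only and 31.2% of those open in MEF alone. For iPSC peaks within 5 kb the share was 40.3% (38.3 to 42.4), against 41.7% of regions open in the intermediate and MEF only, with overlapping intervals. It was higher, at 47.0% (44.7 to 49.2), for regions closed only in iPSC. ESC alone stood at 38.5% (37.6 to 39.4) and MEF alone at 32.7% (32.2 to 33.1).

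ESC-MEF regions lay at gene ends more often than the regions of any other pair of libraries. Within 1 kb of an end of a protein-coding gene lay 366 of them, 16.7% (15.2 to 18.4). The share was 7.73% (6.70 to 8.90) for regions open in MEF and iPSC only, 7.42% for the intermediate and ESC only, 7.94% for the intermediate and MEF only, 6.75% for the intermediate and iPSC only and 5.40% for ESC and iPSC only. It was 6.58% (6.15 to 7.05) for ESC alone and 4.63% (4.43 to 4.83) for MEF alone. Regions open in 3 libraries including ESC and MEF stood higher, at 21.6% whether the intermediate or iPSC was the closed one, and those open in all 4 at 58.7% (58.0 to 59.5). The gene table used has no strand, so a gene end can be a start or a stop; within a window of 2.5 kb the share of ESC-MEF regions was 25.2%. The median heights of regions open in MEF and iPSC only were 41 in MEF and 39 in iPSC, and of ESC-MEF regions 33 in ESC and 41 in MEF.

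**Figure D2:**
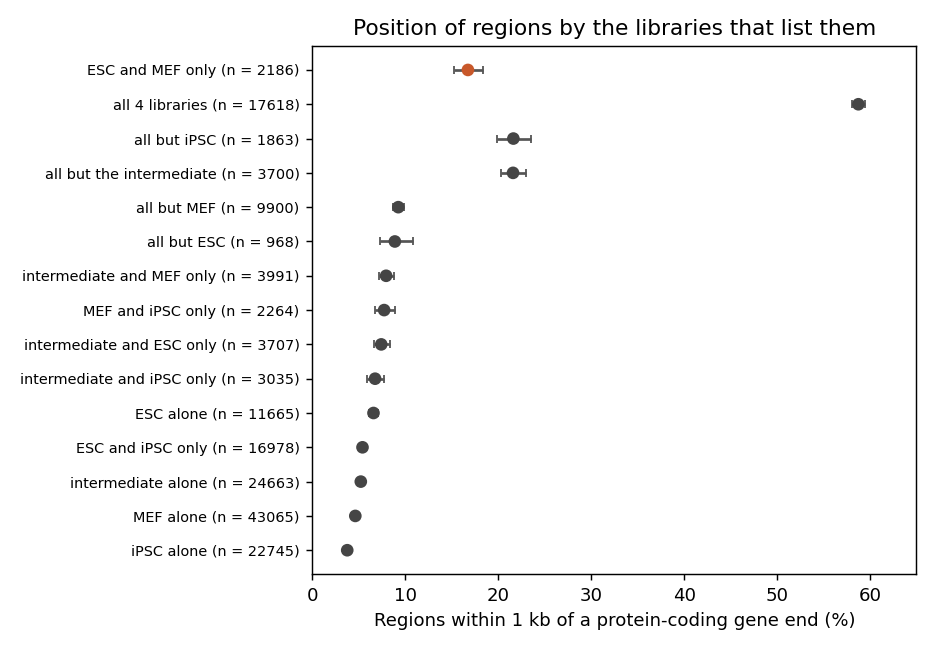
Share (%) of regions within 1 kb of a protein-coding gene end, by the libraries in which the region was open, with 95% Wilson intervals and the number of regions; the ESC-MEF regions (orange) are on top and the other patterns follow from high to low. At 16.7%, ESC-MEF regions lie above every other pair of libraries and below the patterns with 3 libraries that include ESC and MEF.

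Where starts could be told from stops, 153 of 363 gene-end members (42.1%) lay within 1 kb of a RefSeq start, against 35.5% for MEF and iPSC only, 58.7% for the regions closed only in the intermediate and 77.5% for those open in all 4. The rest of the ESC-MEF regions divided into 930 (42.5%) inside genes and 890 (40.7%) between genes. The distal ones lay a median of 15.0 kb from a gene end, against 27.3 kb for MEF and iPSC only, 27.4 kb for ESC alone, 31.4 kb for MEF alone and 14.4 kb for all 4. By chromosome, ESC-MEF regions were between 5.86% of the regions open in ESC and MEF, on chromosomes 1 and 3, and 12.7% (10.9 to 14.9), on chromosome 15. Chromosome 11, which carries the Hoxb cluster, had the most members, 220 (11.5%).

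The promoter windows that ESC-MEF regions met stood between the CpG-rich promoters open everywhere and the CpG-poor ones open in MEF alone. The regions overlapped 166 windows of 151 protein-coding genes on the chromosomes in the promoter table. A window held a median of 12.5 CpG (quartiles 7 and 24), against 22 for regions open in all 4 libraries, 13 for ESC alone, 6 for MEF and iPSC only and 4 for MEF alone. At least 20 CpG were found in 33.1% (26.4 to 40.6) of the windows, against 60.9% (60.0 to 61.8) for all 4, 31.4% (25.1 to 38.4) for ESC alone, 10.7% (5.74 to 19.1) for MEF and iPSC only, 2.98% (1.62 to 5.39) for MEF alone and 37.1% of all 20063 windows. In CpG content the windows thus lay near those of ESC alone. Median GC content was 58.3%, against 62.7% for all 4 and 51.5% for MEF alone.

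Most of the short motifs, AP-1 and the GC box among them, had shares between those of MEF alone and of all 4 libraries. The shares of CTCF, ESRRB and the octamer lay outside that span. The search took 13 motifs on both strands, none of which contains another. A match describes letters and not a bound site. The AP-1 motif TGANTCA, bound by the Fos and Jun factors, occurred in 17 of 166 windows (10.2%, 6.49 to 15.8). Its share was 4.01% (3.65 to 4.39) for all 4 libraries, 4.32% (2.21 to 8.30) for ESC alone and 22.9% (18.7 to 27.7) for MEF alone. AP-1 stood at 5.95% (2.57 to 13.2) for MEF and iPSC only and 7.06% of all windows. Windows that met no region of any library had it in 11.3% (10.5 to 12.1), inside the interval of the ESC-MEF windows. The GC box GGGCGGGG, bound by Sp and Klf factors, occurred in 21.1% (15.6 to 27.9), against 37.1% for all 4, 22.7% for ESC alone, 8.33% for MEF alone and 24.1% of all windows. The E-box CAGGTG, to which repressors such as Zeb2 and Snai1 bind, occurred in 18.1% (13.0 to 24.6), against 30.3% (24.1 to 37.2) for ESC alone and 20.2% (16.3 to 24.9) for MEF alone. The ETS motif CCGGAAGT occurred in 2.41% (0.941 to 6.03), against 8.76% for all 4 and 5.28% of all windows. ETS stood at 1.92% for regions closed only in the intermediate, 14.0% for those closed only in iPSC, 2.16% for ESC alone and 0.298% for MEF alone. The motif CCAATCA of NFY, a factor of many basal promoters, occurred in 4.22% (2.06 to 8.45), against 11.5% for all 4 and 8.95% of all windows. NFY stood at 4.18% for regions closed only in the intermediate, 5.76% for those closed only in iPSC, 9.73% for ESC alone and 4.17% for MEF alone. A CTCF pattern occurred in 4.22% (2.06 to 8.45) of the windows and in 2.39% of all. The TEAD motif CATTCCA occurred in 3.61% and 3.84% of all. The motif TCAAGGTC of ESRRB, a factor of naive pluripotent cells, was found in 0 of 166 windows, which allows a share of up to 2.26% by the upper Wilson bound, and in 0.962% of all windows. The octamer ATGCAAAT (1.81%), NRF1 CGCATGCG (1.81%), YY1 AAGATGGC (3.61%), RUNX TGTGGTTT (1.81%) and CREB TGACGTCA (2 windows) each occurred in at most 6 windows. No search was made in the regions themselves, whose sequence was not used here.

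**Figure D3:**
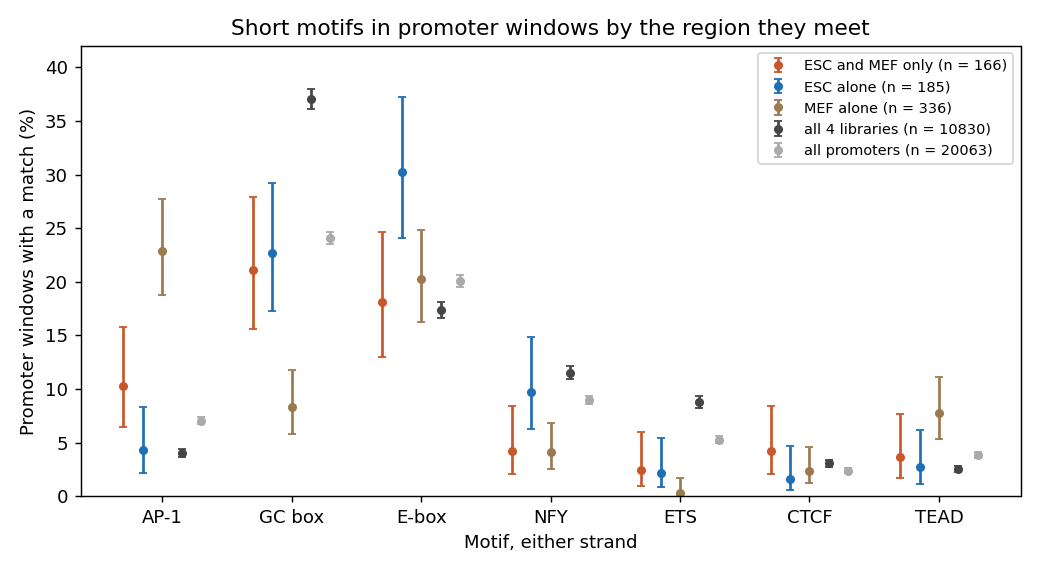
Share (%) of 300-base promoter windows that hold a match to 7 of the motifs on either strand, for windows met by ESC-MEF regions (orange), regions of ESC alone (blue), MEF alone (brown) and all 4 libraries (black) and for all windows (grey), with 95% Wilson intervals. The ESC-MEF windows lie at 10.2% for AP-1, between 4.32% for ESC alone and 22.9% for MEF alone. Windows that met no region, not drawn, had AP-1 in 11.3%.

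Of 20665 protein-coding genes, 407 (1.97%) had an ESC-MEF region within 1 kb of an end, against 0.905% with a region open in MEF and iPSC only and 1.48% with one open in the intermediate and ESC only. No intermediate or iPSC peak was listed at any end of 187 of the 407 (45.9%). The rule had already chosen all 407 for an end region without such a peak, and the share over all genes was not taken. Whether 45.9% is unusual therefore cannot be told. The lists below were set against that 1.97%. Hox genes had 6 of 39 (15.4%) with an ESC-MEF region at an end, secreted ligands of the Wnt, BMP, FGF and hedgehog families 4 of 39 (10.3%), fibroblast genes 3 of 32 (9.38%), collagens 3 of 42 (7.14%), pluripotency genes 2 of 31 (6.45%) and developmental transcription factors 5 of 78 (6.41%). In regions open in MEF and iPSC only, the same counts were 1 Hox gene, 1 developmental factor and 0 in the other 4 lists. In regions open in the intermediate and ESC only they were 2 developmental factors, 2 pluripotency genes and 0 of the rest. Clustered protocadherins (1 of 57, 1.75%) and ribosomal protein genes (1 of 76, 1.32%) lay near that share. Zfp zinc fingers had 4 of 388 (1.03%) and olfactory receptors 3 of 1104 (0.272%). None was found among 25 chromatin and DNA repair genes, 67 histone genes, 22 neural, 20 imprinted, 18 mesoderm and endoderm, 15 epithelial, 11 germline, 10 housekeeping, 8 trophoblast, 6 myeloid and 5 endothelial genes. In lists this short, having none cannot be told apart from a share of 1.97%. The shares above 1.97% rest on only 2 to 6 genes per list. They carry no interval here and were not tested, so they are counts and no shown excess.

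The 6 Hox genes sat in the Hoxa and Hoxb clusters. At Hoxa10, a regulator of limb and uterus development, a region of 1820 bp (chr6:52240081-52241900) covered the start with heights of 32 in ESC and 53 in MEF, and it also lay within 1 kb of the stop of Hoxa11. At Hoxa11, needed for forearm and kidney development, a second region (chr6:52244961-52246960) covered the start with heights of 23 in ESC and 43 in MEF. Another, with 27 in ESC and 29 in MEF, lay 5.52 kb from Hoxa13. No intermediate or iPSC peak was listed between these regions, while all 4 libraries listed peaks around Hoxa13 and on the Hoxa9 side of Hoxa10. In the Hoxb cluster the regions at ends had 51 in ESC and 29 in MEF at Hoxb13 (chr11:96193581-96194670), 36 and 29 in that order at Hoxb5 (chr11:96302901-96304250), 27 and 34 at Hoxb4 (chr11:96317861-96319890) and 21 and 40 at Hoxb2 (chr11:96351491-96353760). A region inside Hoxb3 had 44 in ESC and 71 in MEF. The ESC height was thus above the MEF height at Hoxb13 and Hoxb5 and below it at the other Hox regions named here. That is 2 of 8 Hox regions, near the 28.3% of all members.

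**Figure D4:**
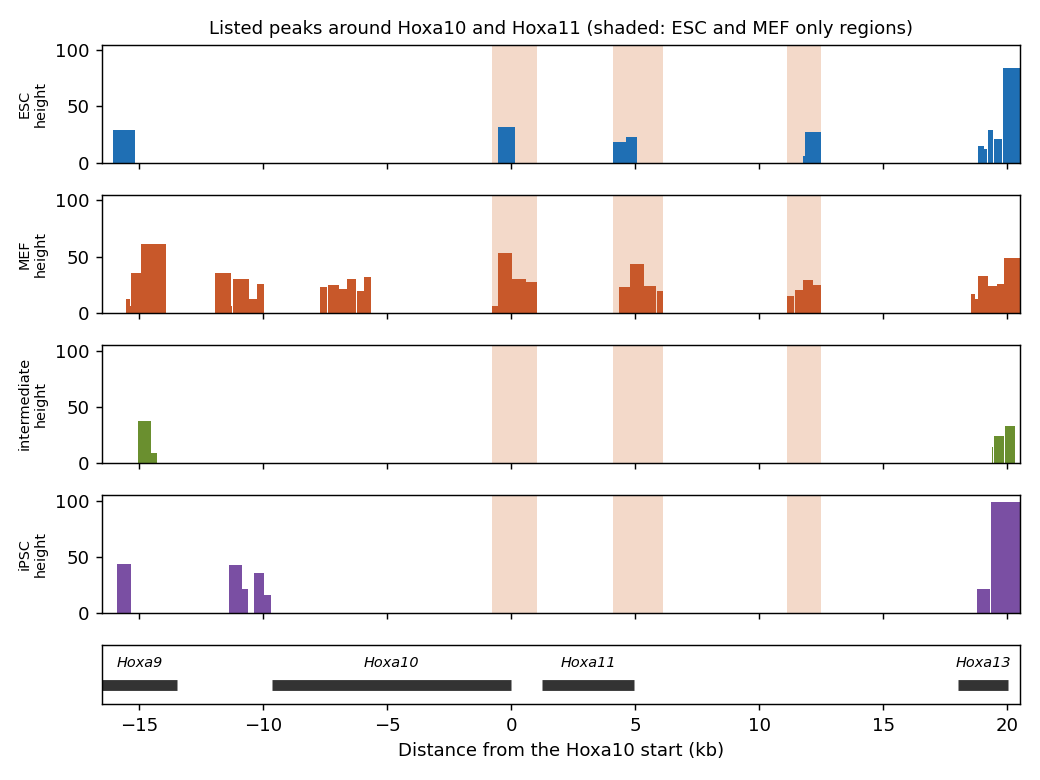
Listed peaks of ESC, MEF, the intermediate and iPSC (top to bottom) around the Hoxa10 start, as bars of deposited height (unscaled) against distance in kb, with gene bodies underneath and ESC-MEF regions shaded. The 3 shaded regions, with tallest ESC heights of 32, 23 and 27 and tallest MEF heights of 53, 43 and 29, hold no peak of the lower tracks.

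Among ligands, the region at the start of Ihh, the hedgehog signal of growing cartilage, had 26 in ESC and 29 in MEF (chr1:74950971-74952130), and a second inside the gene had 39 in ESC and 48 in MEF. Dhh, the hedgehog signal of testis and nerve sheath, had regions with 33 in ESC and 21 in MEF at its end and with 23 in ESC and 36 in MEF nearby. Wnt5a, a Wnt ligand that acts mainly without beta-catenin, had a region of 2790 bp with 26 in ESC and 55 in MEF. Fgf15, an intestinal hormone that restrains bile acid synthesis, had 30 in ESC and 35 in MEF at its end. Away from ends the tallest ligand region lay inside Wnt7b, with 152 in ESC and 160 in MEF, at the percentiles 96.2 and 96.8 of their lists. It was the only ligand region above 100 in ESC. In all, 17 ESC-MEF regions (0.833% of those assigned to a gene within 100 kb) had a ligand gene as their nearest gene, against 6 (0.293%) for MEF and iPSC only, 0.237% for ESC alone and 0.242% for MEF alone.

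The fibroblast genes with a region at an end encode contractile and receptor proteins of mesenchymal cells. MEF heights exceeded ESC heights there, as in most ESC-MEF regions: the ESC height was the higher in only 28.3% of all members. Tagln, the actin-binding protein transgelin, had 41 in ESC and 159 in MEF (chr9:45935291-45937680). Acta2, smooth muscle actin, had 38 in ESC and 54 in MEF (chr19:34239041-34242590). Pdgfrb, a receptor for platelet-derived growth factor, had 30 in ESC and 72 in MEF. The same order held at regions of factors that drive the mesenchymal state: Snai1 had regions with 29 in ESC and 86 in MEF and with 41 in ESC and 92 in MEF, and Runx2, the master factor of bone, had 27 in ESC and 91 in MEF. Zeb2, another such factor, had 3 regions, with 32, 24 and 21 in ESC and 134, 64 and 53 in MEF in the same order. Fibroblast genes were nearest to 11 ESC-MEF regions (0.539%), against 0.439% for MEF and iPSC only, 0.207% for ESC alone and 0.681% for MEF alone. The ESC over MEF height ratio was under 1 in all 11, with a median of 0.396.

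Developmental factors were nearest to 16 ESC-MEF regions (0.784%), below the 0.888% for ESC alone. The share was 0.390% for MEF and iPSC only and 0.417% for MEF alone. These 16 regions had an ESC over MEF height ratio of 0.360 to 1.18 with a median of 0.888. The 8 nearest to pluripotency genes had one of 0.641 to 5.83 with a median of 0.947. All members under 200 in either library had a median of 0.800. The lowest ratio of a developmental factor was at Msx2, a factor of limb and skull, with 27 in ESC and 75 in MEF. At gene ends, Foxf1, a factor of lung and gut mesenchyme, had 53 in ESC and 52 in MEF (chr8:121083061-121085310), and Dlx3, a factor of skin and placenta, 33 in ESC and 31 in MEF. Pitx1, a hindlimb factor, had 24 in ESC and 30 in MEF. Pax2, a kidney factor, had 30 in ESC and 26 in MEF, and Lhx6, a factor of cortical interneurons, 29 in ESC and 35 in MEF. Among pluripotency genes, Klf2, a factor of the naive state, had 30 in ESC and 39 in MEF at 0.917 kb from its end, and Lefty2, an inhibitor of Nodal signalling, 24 in ESC and 26 in MEF. A region inside Lin28a, which blocks maturation of let-7, had 134 in ESC and 23 in MEF. Dnmt3l, a cofactor of DNA methylation, had 59 in ESC and 25 in MEF at one region, which holds the start printed above, and 35 in ESC and 30 in MEF at another. Esrrb had 30 in ESC and 35 in MEF, and a region inside Tet2 had 41 in ESC and 64 in MEF. Pluripotency genes were nearest to 8 ESC-MEF regions (0.392%), against 0.392% for ESC alone and 0.128% for MEF alone.

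Defining markers were read from any region within 1 kb of an end. Of 12 fibroblast markers, 9 had one open in ESC, 11 in MEF, 6 in the intermediate and 7 in iPSC, and Lum had none in any library. Of 10 pluripotency markers, 8 had one in ESC, 2 in MEF, 7 in the intermediate and 10 in iPSC. MEF had none at Pou5f1 and Nanog, and ESC had none at Pou5f1 and Esrrb, which goes against the ESC label at these 2 genes but not at the other 8. Epithelial markers had 6 of 6 in ESC, the intermediate and iPSC and 1 in MEF. Endothelial markers had 2 of 5 in ESC and in MEF, with none at Pecam1 and Cdh5, and myeloid markers 2 of 6 in ESC and 3 of 6 in MEF, with none at Ptprc and Adgre1. Of the fibroblast markers 1, Pdgfrb, had an ESC-MEF region at an end, which the rule itself made open in ESC and closed in the intermediate and iPSC. With 9 fibroblast markers open in the ESC library, a share of fibroblast feeder cells in it was not tested as a source of ESC-MEF regions.

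A small group of ESC-MEF regions was far taller than most others in both libraries. In 16 of them (0.732%) both heights were at least 200, and in 12 (0.549%) at least 400. No region open in MEF and iPSC only or in the intermediate and iPSC only reached 200 in both, and 1 each did among those of the intermediate with ESC and with MEF. Of 16978 regions open in ESC and iPSC only, 31 reached 200 and 1 reached 400. Among regions closed only in the intermediate 13 reached 200 in all 3 open libraries and 11 reached 400, and among those open in all 4, 876 reached 200 and 62 (0.352%) reached 400. ESC and MEF heights of the 16 were close to equal: the ESC over MEF ratio ran from 0.788 to 1.03 with a median of 0.936, against quartiles of 0.566 and 1.06 in the other members. They were a median of 770 bp wide, against 965 bp. No intermediate or iPSC peak was listed within 5 kb of 12 of the 16, against 1005 of the 2170 other members. At a gene end lay 1 of the 16, against 365 of the 2170. Annotations of repeats or of stretches with artificially high signal were not used here, so whether these regions overlap such sequence was not tested. The tallest of them stayed far below the highest peaks of regions open in ESC and MEF, which reached 297851 in ESC and 155962 in MEF.

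**Figure D5:**
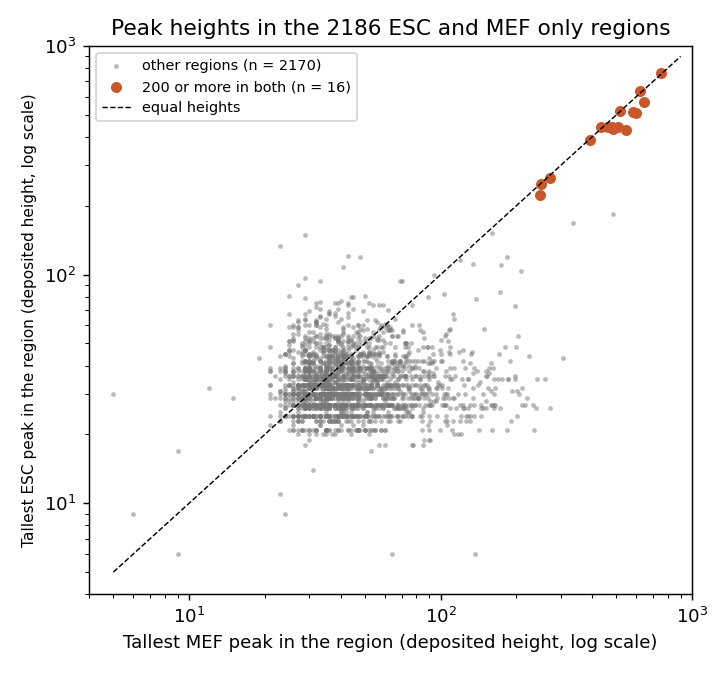
Tallest ESC peak against tallest MEF peak in each of the 2186 ESC-MEF regions, as deposited heights on log axes, with the 16 regions of at least 200 in both in orange and the line of equal heights dashed. Most regions form a cloud around a height of 33 in ESC and 41 in MEF, and the 16, chosen for being tall in both, lie apart along the line.

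The tallest lay nearest to Ror2, a receptor for Wnt5a, with 758 in ESC and 754 in MEF (chr13:53269381-53270320). Immp2l, a mitochondrial inner membrane peptidase, had 638 in ESC and 621 in MEF (chr12:41514961-41515460). Ccng2, the cyclin G2 gene, had 566 in ESC and 642 in MEF (chr5:93289251-93290140). These regions were 500 to 940 bp wide. Tmcc3, a protein of the endoplasmic reticulum, had the only one at a gene end, with 519 in ESC and 517 in MEF (chr10:94591951-94592980). Tbl1xr1, a subunit of a nuclear receptor corepressor, had 513 in ESC and 580 in MEF, the predicted gene Gm35315 had 511 in ESC and 597 in MEF, and Kcnh8, a potassium channel, 443 in ESC and 509 in MEF. The other regions above 400 in both lay nearest to Zfp326, Hs6st3, Nedd4l, 4921504E06Rik and Plxnc1, with 431 or more in ESC and 436 to 547 in MEF. Bard1, the partner of Brca1, had 386 in ESC and 393 in MEF, the adhesion protein Cadm1 265 in ESC and 272 in MEF, Mylk 249 in ESC and 250 in MEF and Ros1 222 in ESC and 248 in MEF. The nearest gene is given for position only, and Tbl1xr1, Zfp326 and Kcnh8 lay 377, 261 and 173 kb from their regions.

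Ranked by the lower of the ESC and MEF percentiles, the members at gene ends that followed Tmcc3 had heights of 59 to 64 in ESC and 61 to 113 in MEF. Thap3, of the THAP zinc finger family, had 64 in ESC and 66 in MEF (chr4:151987671-151989600). A region over the starts of Bco2, a carotenoid-cleaving enzyme, and of Il18, a cytokine, had 64 in ESC and 113 in MEF (chr9:50554301-50555440). Their promoter windows held 2 and 1 CpG. Pola2, a subunit of DNA polymerase alpha, had 60 in ESC and 61 in MEF, Cstad 60 in ESC and 82 in MEF, and Coro6, of the actin-binding coronins, 59 in ESC and 63 in MEF. The windows of Pola2 and Coro6 held 30 and 31 CpG, so these gene-end members included both CpG-rich and CpG-poor promoters.

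ESC-MEF regions were scattered over genes. Within 100 kb of a protein-coding gene lay 2041 (93.4%), and they had 1800 different nearest genes. Of those genes 1597 (88.7%) had 1 region, 171 had 2 and 32 had 3 or more. H6pd, an enzyme of sugar phosphate oxidation in the endoplasmic reticulum, had the most, 5, with ESC heights of 23 to 46 and MEF heights of 24 to 198. Only 3 of the 5 were within 20 kb of the gene. Tead1, a partner of Yap in transcription, had 4 with 29 to 34 in ESC and 33 to 103 in MEF. Prr5, a component of mTOR complex 2, had 4 with 36 to 73 in ESC and 25 to 198 in MEF, of which 2 were within 20 kb. Pakap, a kinase anchoring protein, and Nav2, a neuron navigator protein, had 4 each. Nav1, Zeb2, Tshz2, Rhbg and Laptm5 were the genes with 3 that the naming rule took, and 1 of the 3 of Laptm5 lay within 20 kb. Nav2 spans 651 kb, Pakap 463 kb and Tshz2 440.2 kb, against 29.6 kb for H6pd and 11.9 kb for the ammonium transporter gene Rhbg, so long genes were only part of this group.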

How the data were processed

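Chromatin accessibility was measured by ATAC-seq in 1 library each of ESC, MEF, the intermediate and iPSC. The deposited files list peaks with their limits, summit and height for every library. Height is the authors' signal in whole numbers from 5 upward, whose scaling no header or label gives. Per the submitters' processing notes, the tools included MACS 1.4.2-1, Picard, Bowtie2 and CASAVA 1.8.2 and the build was mm10, with tool roles not given in the sources used here. Neighbouring peaks divide longer stretches, so heights below are those of the tallest peak of a library in a region, and depth is unknown.

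Regions were built in Python 3.11.15 with numpy 2.4.6 and pandas 2.3.3, and the joining step was tested on simulated intervals. Gene positions came from RefSeq GRCm38.p6 without strand, and the RefSeq promoter windows used span the chromosomes of 2138 of the 2186 members; windows of the remaining chromosome, whose 48 regions count in all other results, were not used here. Both ends of a gene stood for its start. Each region took its nearest protein-coding gene, within 100 kb for counts by gene and at any distance for the tall regions. Wilson 95% intervals (scipy 1.17.1), where given, count regions or windows as independent, and the shares of gene lists carry none. Named are list genes with a region at an end, the 12 members with the highest lower percentile of both heights (6 at an end, 6 away) and the 10 genes with the most members. Other list genes, the remaining regions of at least 200 and the Hoxb3 and Hoxa13 regions were chosen after their values were seen. Of the 373 entries of 15 gene lists, 359 matched a protein-coding gene on chromosomes 1 to 19; 6 further groups were taken by symbol prefix. The members and the lists were chosen with earlier results of these data known. Alternatives changed the joining distance, height limits, list length, overlap, margin, peak width, chromosomes and windows.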

Additional observations from a re-analysis of the deposited data

How the results depend on the processing

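No paired analysis was possible because every group had 1 library. Across 10 alternatives, the number of ESC-MEF regions ran between 1013 and 2497, and it left the range of 1.5 times around 2186 only with ESC and MEF peaks taken from above the median height of their lists, at 1013. Their share of the regions open in ESC and MEF, 8.62%, left its interval in 4 of the 10: it was 4.81% with those taller peaks, 7.79% with no intermediate or iPSC peak allowed within 500 bp, 9.11% with peaks set to 500 bp around the summit and 9.45% with joining only of peaks that share a base. The gene-end share, 16.7%, was 18.6% with the taller peaks, 22.2% with peaks of 500 bp and 25.2% with a window of 2.5 kb, and stayed inside its interval in the other 8. The cause of these shifts was not tested. Of the 5 lists recomputed, Hox genes had 6 or 7, ligands 3 to 5, fibroblast genes 3 and pluripotency genes 2 with a region at an end; developmental factors had 8 with joining only of peaks that share a base, against 5. Assignment within 20 kb left 3 regions at H6pd, 2 at Prr5 and 1 at Laptm5, and the other 7 genes kept their counts. Heights have no error, and without read totals a closed library cannot be told apart from a shallow one.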

Other observations

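Among other gene groups, ESC-MEF regions overlapped 2 annotated miRNA hairpins: Mir7228, with 21 in ESC and 26 in MEF, and Mir5099, with 30 in ESC and 34 in MEF. The imprinted genes Igf2, a fetal growth factor, and Dlk1, an inhibitor of adipocyte formation, had 2 regions each away from their ends. Those of Igf2 had 21 and 30 in ESC and 50 and 44 in MEF in the same order, and those of Dlk1 had 30 and 25 in ESC and 62 and 51 in MEF. The Igf2 region with 30 in ESC lay inside the gene and covered a RefSeq promoter window of Igf2 with 24 CpG. It was thus away from the gene ends but at an annotated start. A region near Shh, the hedgehog signal of limb and neural tube, had 50 in ESC and 45 in MEF, and one near Krt18, a keratin of simple epithelia, had 67 in ESC and 25 in MEF. Collagen genes with a region at an end were Col16a1, Col26a1 and Col7a1, and the single protocadherin was Pcdhgc5. Ribosomal protein genes had Rps10. These genes were picked after their values were seen.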
